A study of Arabidopsis thaliana with 2 samples.

Results

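Most of the genes described here encode mitochondrial enzymes of leucine breakdown or the electron transfer flavoprotein route that carries their electrons to ubiquinone. An enzyme of lysine breakdown (D2HGDH) and an enzyme of valine breakdown (ALDH6B2) are included. The genes were chosen by locus as a set, at a time when earlier results of these data were known: MCCA (AT1G03090), MCCB (AT4G34030), IVD (AT3G45300), ETFQO (AT2G43400), ETFA (AT1G50940, annotated as ETFALPHA), ETFB (AT5G43430, annotated as ETFBETA), D2HGDH (AT4G36400) and ALDH6B2 (AT2G14170). All 8 genes had a single-gene probe set, a group of short array probes that the annotation pairs with exactly 1 gene, and each had exactly 1 of them. They are 8 of 13355 genes with such a probe set.

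The samples were protoplasts, cells freed from their walls, from mesophyll, the photosynthetic tissue of Arabidopsis thaliana leaves. The labels name no genotype, ecotype or plant age. Leaves 2 h into the light period of 36 soil-grown plants gave 1 pool of cells, which was divided in equal numbers into 1 control and 1 hypoxia sample. Control cells were kept in a dish for 6 h with 10 ml of mannitol buffer, where the layer was 0.6 mm deep. Hypoxic cells spent the same 6 h in a 15 ml tube with 2 ml of that buffer, where it was 25 mm deep, and light was 80 microeinstein for both. The hypoxic cells therefore also stood at 5 times the cell density and in another vessel, which cannot be told apart from low oxygen. Each sample was read on 1 Affymetrix array, so no value below has a replicate and no test of a difference was possible. The study was made to identify hypoxia-inducible genes of mesophyll cells.

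Leucine is broken down in plant mitochondria by removal of its amino group, oxidative decarboxylation to isovaleryl-CoA, and oxidation of that by isovaleryl-CoA dehydrogenase (IVD). Methylcrotonyl-CoA carboxylase, built from a biotin-carrying subunit (MCCA) and a carboxyltransferase subunit (MCCB), then adds a carboxyl group. IVD and D-2-hydroxyglutarate dehydrogenase (D2HGDH), which acts in lysine breakdown, hand their electrons to the electron transfer flavoprotein, a dimer of ETFA and ETFB. Its oxidoreductase (ETFQO) passes them to ubiquinone in the inner membrane. ALDH6B2, methylmalonate semialdehyde dehydrogenase, stands outside this route and works late in valine breakdown. In Arabidopsis the route is known for feeding respiration from amino acids when leaves are kept in darkness and sugars run out, and KIN10, a catalytic subunit of the energy-sensing kinase SnRK1, raises transcripts of several of these genes.

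MCCA and ETFQO transcripts were far higher in hypoxia than in control, and the other 6 genes lay within 2-fold. MCCA was 6.26-fold higher and ETFQO 5.77-fold higher, whereas MCCB, which shares an enzyme with MCCA, and ETFA and ETFB, which supply ETFQO with electrons, were not. Of the 8 genes, 2 were at least 2-fold higher and 0 passed 2-fold in the other direction. Among all 7972 genes measured, meaning above a floor intensity of 165.7 on at least 1 array, 13.0% were at least 2-fold higher and 14.5% were lower by that fold. The median log2 ratio of hypoxia over control was 0.26 for the 8 genes and -0.07 for all measured genes. Set against 13.0%, a count of 2 in 8 is no result about the set as a whole, so the values of each gene are given in turn.

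The floor used here is the 40th percentile of the pooled intensities after the arrays were brought to a common median. All 8 genes stood above it on both arrays, so none of their ratios is a bound. Intensities are given as deposited, on a linear scale, and ratios come from the scaled values. The intensities of different probe sets depend on their probes, so levels are compared between arrays and never between genes.

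The entry to the route was modestly higher in hypoxia. IVD, the flavoprotein dehydrogenase that oxidises isovaleryl-CoA, was read at 2973.5 on the control array and at 4321 on the hypoxia array, which is 1.50-fold higher (log2 ratio 0.59). This was within 2-fold, and 77.5% of measured genes had a lower ratio.

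The 2 subunits of methylcrotonyl-CoA carboxylase differed sharply. MCCA, the biotin-carrying subunit, climbed from 453 in control to 2748 in hypoxia (log2 ratio 2.65). It ranked 75 from the top of the 7972 measured genes. MCCB, the carboxyltransferase subunit, went from 1690.0 to 1377, a log2 ratio of -0.25. Its ratio lay near the middle of all genes, with 41.8% of them lower. The log2 ratio of MCCA exceeded that of MCCB by 2.89, a 7.44-fold difference in their ratios.

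The 3 genes that carry the electrons onward also differed among themselves. ETFA, one subunit of the flavoprotein, went from 3868 to 2283, a log2 ratio of -0.71 or 1.64-fold lower in hypoxia. It had the lowest ratio of the 8 genes, and 22.9% of measured genes were lower still. ETFB, the other subunit, went from 4801.5 to 6111, a log2 ratio of 0.39 or 1.31-fold higher. The 2 subunits thus lay on opposite sides of 0, 1.11 apart on the log2 scale. ETFQO, the oxidoreductase that follows them, went from 535 to 2986, a log2 ratio of 2.53, and ranked 99 from the top. Its log2 ratio was 2.13 above that of ETFB and 3.24 above that of ETFA.

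The other electron donor and the valine enzyme barely differed between the arrays. D2HGDH went from 2032 to 1770, a log2 ratio of -0.15. ALDH6B2 went from 2705 to 2867, a log2 ratio of 0.13. The plot of intensities by array shows MCCA and ETFQO as 2 steep lines. Those of IVD and ETFB slope up far less, that of ETFA slopes down, and those of MCCB, D2HGDH and ALDH6B2 are nearly flat.

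**Figure D1:**
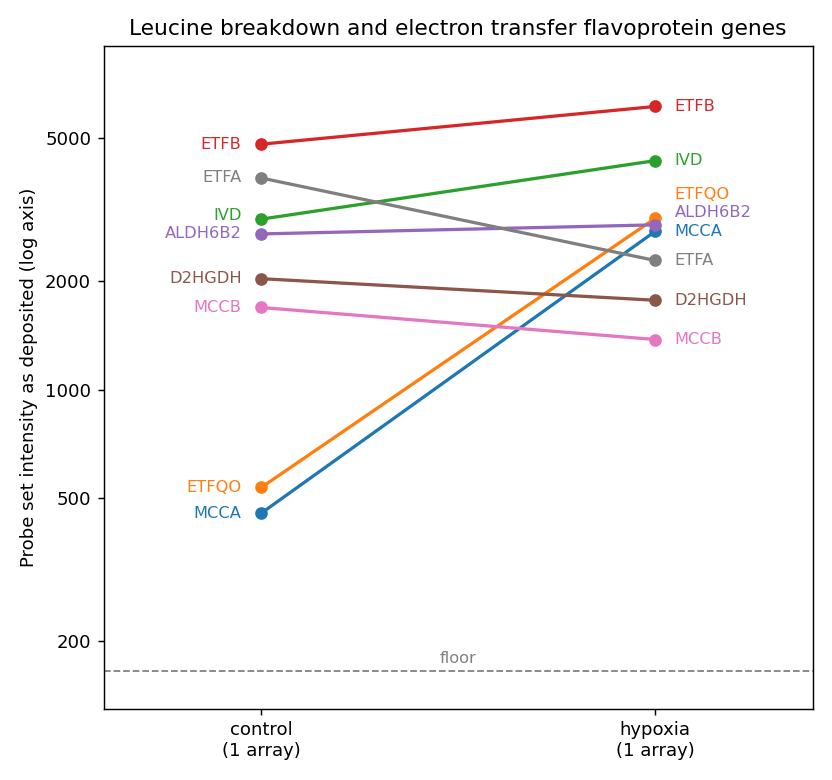
Probe set intensity as deposited, on a log axis, for each of the 8 genes on the control array and the hypoxia array. Each line joins the 2 values of 1 gene, and the dashed line is the floor of 165.7. MCCA climbs from 453 to 2748 and ETFQO from 535 to 2986, while ETFA goes from 3868 down to 2283.

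The spread between replicates is unknown, but the spread between probe sets of the same gene gives a technical scale. In 74 genes for which 2 single-gene probe sets exceeded the floor on each array, a log2 ratio had a probe set SD of 0.34. The 2 probe sets of a gene differed by at most 1.22. The gap between MCCA and MCCB, and those of ETFQO from ETFA and ETFB, were larger than any of these 74. The gap of 1.11 between ETFB and ETFA was reached by 1 of the 74. The log2 ratios of MCCA and ETFQO were 0.12 apart, which 61 of the 74 reached, so these arrays do not separate the 2 genes. This scale holds probe error only and leaves out differences between cultures.

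In control, MCCA and ETFQO stood at 2.69 and 3.18 times the floor, so their ratios move when the floor is raised past those values. Of 728 measured genes with control intensities between 400 and 600, a range set after the values were seen, 13.2% were at least 2-fold higher in hypoxia, close to the share among all genes. A ratio at or above that of ETFQO was found for 21 of them, MCCA and ETFQO included, or 2.88%. When the 60th percentile was the floor, both genes lay under it in control, and their log2 ratios became lower bounds of 2.05 for MCCA and 2.17 for ETFQO. The histogram of all measured genes places both in its upper tail and the other 6 in its bulk.

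**Figure D2:**
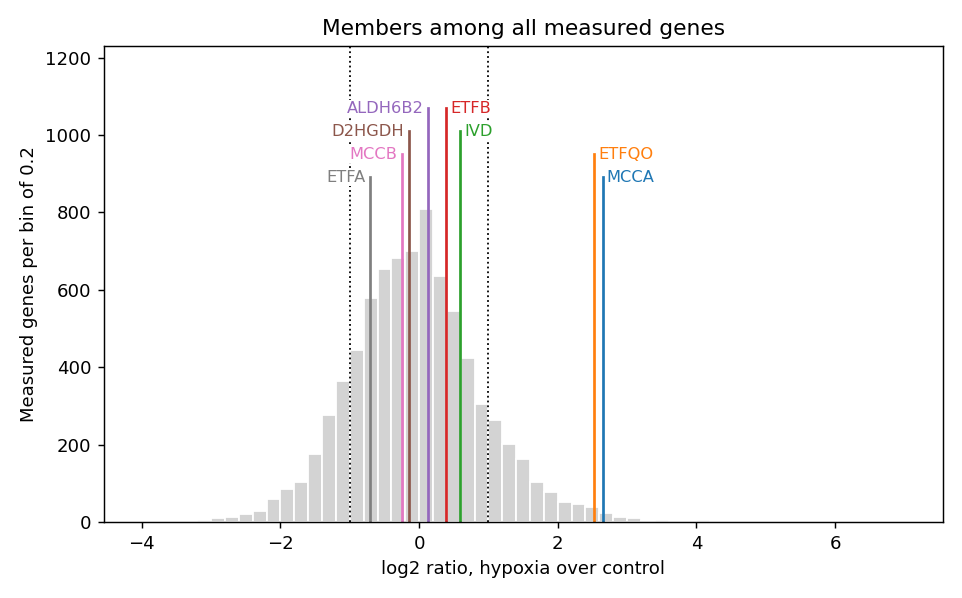
Distribution of the log2 ratio of hypoxia over control over 7972 measured genes, in bins of 0.2, with the 8 genes as coloured lines whose heights only separate the names. Dotted lines mark 2-fold. ETFQO at 2.53 and MCCA at 2.65 lie beyond the upper line, and the other 6 lie between -0.71 and 0.59.

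Of the 6 modest ratios, IVD stayed above 0 and MCCB and ETFA below 0 under all 10 alternatives, while ETFB, ALDH6B2 and D2HGDH each changed sign under 1. Centring on 18 hybridisation control probe sets, which read RNA added to each sample during the assay, moved the median of all genes by -0.48. Under that centring ETFA was at -1.22, more than 2-fold lower, ETFB at -0.11, ALDH6B2 at -0.37, and the median of the 8 genes at -0.24. D2HGDH changed sign with a loess correction, to 0.01. In the main setting 47.3% of all genes past 2-fold were higher in hypoxia, against 17.7% with hybridisation control centring and 61.8% where the 20th percentile was the floor. MCCA and ETFQO were at least 2-fold higher under all 10 alternatives, at log2 ratios of 2.05 to 2.90 and 2.03 to 2.77. Of these alternatives, the lower floor and the other ways of reading probe sets could not move any of the 8 genes. A common scaling factor cancels in the gap between 2 genes, so the deposited scale and the centrings could not change such a gap either. Quantile normalization, loess, the higher floor and a constant added in place of a floor could change the gap between MCCA and MCCB. Under these MCCA exceeded MCCB by 2.30 to 2.95. The higher floor could not change the gap between ETFB and ETFA, which both stood above it. Under the other settings that could, ETFB exceeded ETFA by 1.04 to 1.10. The plot by processing setting shows these ranges.

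**Figure D3:**
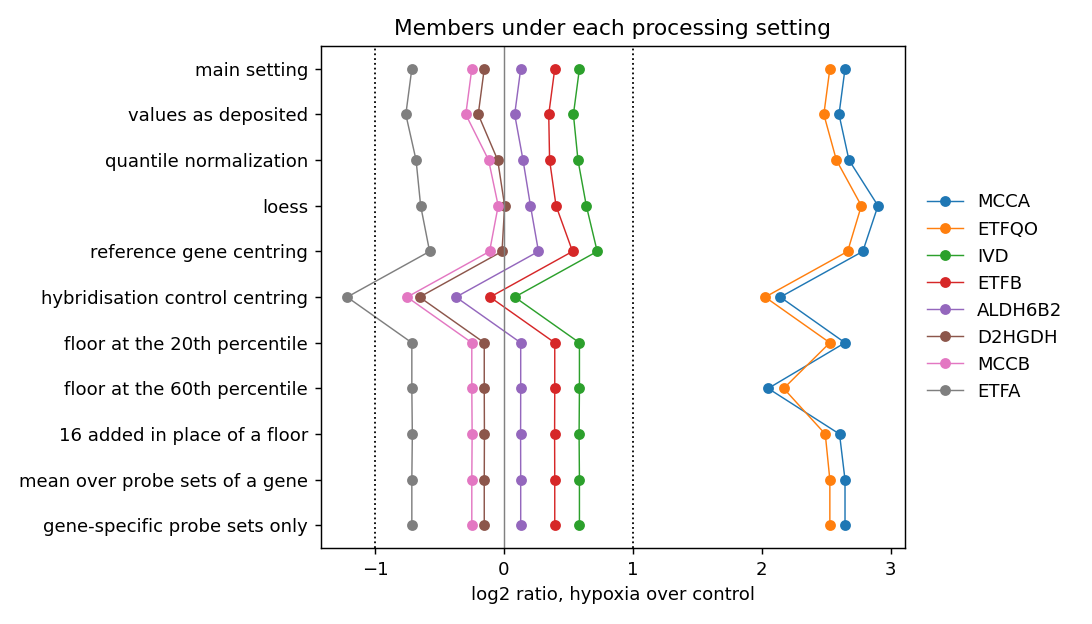
Log2 ratio of hypoxia over control for each of the 8 genes in the main setting and under 10 alternatives, with dotted lines at 2-fold. MCCA and ETFQO stay at or above 2.03 in every row, and hybridisation control centring moves all 8 genes to the left, taking ETFA to -1.22.

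Among other genes of branched-chain amino acid breakdown, those that were measured were mostly lower in hypoxia. Of 20 listed genes, 8 had a single-gene probe set and all 8 were measured. None (0) passed 2-fold upward and 2 passed it downward, beside 13.0% and 14.5% of all measured genes. In 8 genes these counts are no result about the list. A ratio below 0 was found for 7 of the 8, as for 4215 of the 7972 measured genes. The median of the 8 was -0.54, beside -0.07 for all measured genes, and it lay between -1.04 and -0.40 over the 10 alternatives.

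The exception was the last enzyme of leucine breakdown. AT2G26800, which encodes hydroxymethylglutaryl-CoA lyase, went from 2969 to 5247, a log2 ratio of 0.87 or 1.83-fold. AT4G16800, of the enoyl-CoA hydratase family, was at -0.62, from 472 to 297, the latter 1.82 times the floor. AT5G09300, an alpha subunit gene of the branched-chain ketoacid dehydrogenase that stands upstream of IVD, was at -0.44, with intensities of 275.5 and 197 that were both close to the floor.

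The 2 genes at least 2-fold lower were AT4G31810 and AT4G20930. AT4G31810, of the hydroxyisobutyryl-CoA hydrolase family, went from 2477 to 818, a log2 ratio of -1.55. AT4G20930, which encodes a hydroxyisobutyrate dehydrogenase, went from 1502 to 709, a log2 ratio of -1.04, and was no longer past 2-fold after loess, quantile normalization or reference gene centring. The related dehydrogenase genes AT4G29120, AT1G71170 and AT1G71180 were at -0.22, -0.53 and -0.55. In hypoxia AT1G71170 and AT1G71180 stood low, at 2.56 and 1.37 times the floor.

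The 3 measured genes of other enzymes that feed electrons or carbon into mitochondria from amino acids lay within 2-fold. Of 14 listed genes these 3 were measured, with 0 past 2-fold upward and 0 downward, beside 13.0% and 14.5% of all measured genes. In 3 genes such counts are no result about the list. The median of the 3 was -0.42, beside -0.07 for all measured genes. The 3 were the proline dehydrogenase gene AT5G38710 at -0.18, the lysine breakdown gene AT4G33150, known as LKR/SDH, at -0.42, and the L-2-hydroxyglutarate dehydrogenase gene AT3G56840 at -0.45.

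The alternative NADH dehydrogenases, which also reduce ubiquinone, did not share the high ratio of ETFQO. Of 14 listed alternative oxidase, NADH dehydrogenase and uncoupling protein genes, 3 were measured. Past 2-fold upward were 0 and downward 0, beside 13.0% and 14.5% of all measured genes. In 3 genes such counts are no result about the list. The median of the 3 was -0.54, beside -0.07 for all measured genes. NDB2 went from 9818 to 5660, a log2 ratio of -0.75. NDC1 was at -0.54, and NDB1, whose control value lay at the floor, was at 0.44 or more. NDB3 and NDB4 were under the floor on both arrays, and the alternative oxidase genes were not analysed here. The plot of related pathways sets these lists beside the 8 genes.

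**Figure D4:**
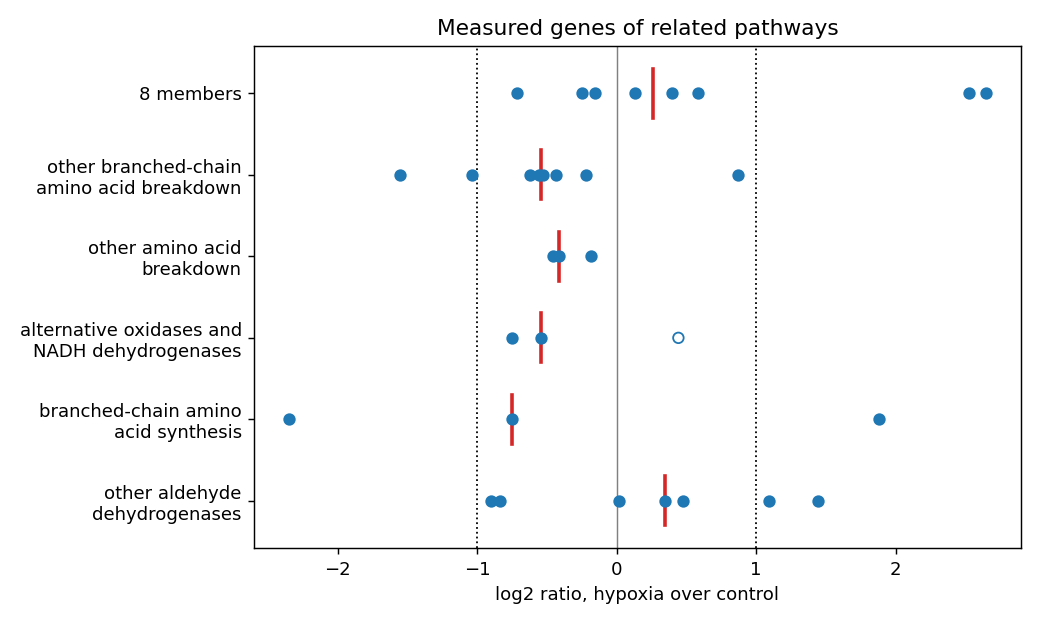
Log2 ratio of hypoxia over control for each measured gene of the 8 members and of 5 related lists. Filled points are above the floor on both arrays, the open point is a lower bound (NDB1 at 0.44), red bars are medians, and dotted lines mark 2-fold. MCCA and ETFQO, at 2.65 and 2.53, lie to the right of every other point, and the medians of 4 lists lie below 0.

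Genes with ratios like those of MCCA and ETFQO could be sought over 2 arrays only, where likeness means a close log2 ratio. Among the 6648 genes that exceeded the floor on each array, AT1G66100, AT2G45920 and AT1G22830 were nearest to MCCA, at 2.65, 2.64 and 2.63. AT5G59490, AT1G61660 and AT3G49790 were nearest to ETFQO, at 2.53, 2.52 and 2.52. Within 0.05 lay 10 genes for MCCA and 18 for ETFQO, so the order among them carries little.

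Markers of mesophyll were also higher in hypoxia in the main setting. Of 8 listed mesophyll genes 5 were measured, all with a ratio above 0, beside 47.1% of all measured genes. At least 2-fold higher were 3, beside 13.0% of all genes, with a median of 1.04 and a summed intensity of 72873 in control and 133282 in hypoxia. The highest were PRK at 1.41, SBPASE at 1.37 and LHCB4.2 at 1.04. Of 3 phloem genes only SWEET11 was measured, from 212 to 1020. Of 4 guard cell genes 2 were measured, with a summed intensity of 328 in control and 503 in hypoxia: FMA at 0.20 and AT1G22690, at the floor in control, at 0.11 or more. Epidermis markers were not analysed here. No marker was listed at 0, and the part of cell composition in the ratios above was not tested. In RNA from many cells, fewer cells of a type and less RNA per cell cannot be told apart.

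Of the technical measures, the spiked hybridisation controls differed between the arrays and the others lay closer. The median intensity was 345 in control and 334 in hypoxia. The 3′ over 5′ ratio of control probe sets, a sign of RNA quality, was 4.96 for actin, 0.823 for GAPDH and 2.18 for ubiquitin in control, and 4.48, 0.974 and 1.92 in hypoxia. The 18 hybridisation controls all had log2 ratios above 0, with 0.50 as their median, and the 5 measured reference genes had a median of -0.14. The reference genes ranged from AT2G28390 at -0.91 to AT5G46630 at 0.37, with AT4G34270 at -0.61.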

How the data were processed

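The authors deposited 1 column per array of probe set intensities, which are linear signals from GCOS 1.0, per the submitters' processing notes. Software settings and the array's genome build are not given in the sources used here, so no coordinates are printed. The deposited columns had already been scaled: without the 2% of probe sets at either end, each had a mean of 1500.1. Controls (64 of 22810 probe sets) were left out. An older platform annotation paired 13513 of the rest with 1 gene and 503 with several, and 13436 of the former matched a RefSeq gene table (assembly TAIR10.1) by Entrez identifier.

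Both arrays were scaled to the same median, computed without controls. Values under the 40th percentile, 165.7, were set to it, and log2 ratios of hypoxia over control were taken. A gene with several probe sets was read by the brightest. With 1 array per group there is no test, and the number of arrays limits the precision, so 2-fold counts describe these arrays. Python 3.11.15, numpy 2.4.6 and pandas 2.3.3 were used. The calculation was also run on simulated data, with shifts set only in genes well above the floor. That run checks the arithmetic and says nothing about the error of the ratios given here. The 8 genes, 8 related gene lists, the marker lists and the alternatives were chosen with earlier results of these data known. Named were all 8 genes, every measured gene of the other branched-chain breakdown list, up to 3 genes of the largest absolute ratio from each further list, and the 3 genes nearest in ratio to each member past 2-fold. Where further genes of a list are named, they were added after their values were seen. Roles of genes named by locus alone are general knowledge of those loci.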

Additional observations from a re-analysis of the deposited data

How the results depend on the processing

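No paired analysis was possible because each group has 1 array, and for the same reason no replicate could be left out. Of 10 alternatives, the count of the 8 genes at least 2-fold higher was 2 under all of them, and the count at least 2-fold lower was 0 under 9. Hybridisation control centring changed most: 1 of the 8 genes was at least 2-fold lower and their median was -0.24. Under it the other branched-chain breakdown list had 5 genes at least 2-fold lower and a median of -1.04, the other amino acid breakdown list a median of -0.92, the alternative NADH dehydrogenase list 2 genes lower and -1.05, the branched-chain synthesis list 2 lower and -1.25, and the other aldehyde dehydrogenases 0 higher, 2 lower and -0.15. After loess, quantile normalization or reference gene centring, 1 gene of the other branched-chain breakdown list was at least 2-fold lower in place of 2, and under the last of these 1, AT2G26800, was at least 2-fold higher. With the floor at the 20th percentile 1 alternative NADH dehydrogenase gene was at least 2-fold lower, and at the 60th percentile 1 aldehyde dehydrogenase gene was at least 2-fold higher and the alternative NADH dehydrogenases were too few for a median. Over all genes, 1037 were at least 2-fold higher and 1156 lower, against 528 and 2455 with hybridisation control centring and 2273 and 1404 where the 20th percentile was the floor. Reading gene-specific probe sets alone, or averaging probe sets, could not move the 8 genes, which have 1 probe set each. Nor could the floor at the 20th percentile, because all 8 already stood above the higher main floor.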

Other observations

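Enzymes that make branched-chain amino acids in the plastid lay on both sides of 0. Of 15 listed genes 3 were measured, of which 1 passed 2-fold upward and 1 downward, beside 13.0% and 14.5% of all measured genes. In 3 genes these counts are no result about the list. The median log2 ratio of the 3 was -0.75, beside -0.07 for all measured genes. AT2G31810, a regulatory subunit gene of acetohydroxyacid synthase, the first shared step, went from 4018 to 14351, a log2 ratio of 1.88. AT3G58610, the ketol-acid reductoisomerase gene, went from 28920 to 16665, at -0.75. AT3G23940, the dihydroxyacid dehydratase gene that follows it, went from 5722 to 1088, at -2.35, which is 5.09-fold lower. The genes of these consecutive steps did not move by a common amount, and neither did MCCA and MCCB, which are subunits of a single enzyme.

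Among relatives of ALDH6B2, 7 of 14 listed aldehyde dehydrogenase genes were measured. Upward 2 passed 2-fold and downward 0, beside 13.0% and 14.5% of all measured genes, and the median was 0.35, beside -0.07. ALDH11A3, a non-phosphorylating glyceraldehyde phosphate dehydrogenase, went from 1879 to 4945, at 1.44. ALDH3F1 was at 1.09, with a control intensity of 296, and ALDH10A9 at -0.90. Of 12 peroxisomal beta-oxidation genes only AIM1 was measured, at -0.10. The biotin and acetyl-CoA carboxylase list was not analysed here. A probe set that the annotation pairs with both AT1G21400, an alpha subunit gene of the branched-chain ketoacid dehydrogenase, and AT5G34780 entered no comparison. It went from 3727 to 3094, a log2 ratio of -0.22 that cannot be given to either gene.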
